A study of Mus musculus with 8 samples.

Results

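The SLC25 genes encode the mitochondrial carrier family, the largest group of solute transporters of the inner mitochondrial membrane. Members were taken as every symbol in the deposited counts that starts with Slc25a followed by a number, and there were 47 of them among 24421 symbols. Naive CD4+ T cells from mouse spleen were sequenced in 8 libraries, 4 titled E1KO and 4 titled E1WT. The study concerns Pcbp1 (also hnRNP E1, an RNA-binding protein), floxed and deleted by a Cre recombinase under the Cd4 promoter. This Cre acts from the stage in the thymus at which thymocytes carry both CD4 and CD8, so that all T cells that pass through it are affected.

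By the labels, mice of strain C57BL/6, male and 6 to 8 weeks old, were either Pcbp1fl/fl with Cd4-Cre or wild type. The characteristics name the control genotype Pcbp1+/+ with Cd4-Cre, so that as labelled there it carries the Cre too. Cells were isolated from spleen with a naive T cell kit. Titles and genotype fields state opposite genotypes in 8 of 8 samples, so every library is called by its title here, and higher or lower refers to titles. Pcbp1 had 38.3, 38.8, 39.8 and 41.8 CPM (counts per 1e6 gene counts, scaled by TMM) in the libraries titled E1KO, against 222, 243, 227 and 203 CPM in those titled E1WT. It thus fell with the titles, by 2.49 ± 0.07 on the log2 scale (standard error; edgeR adjusted p = 2.57e-09).

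Carriers of this family share a fold of tandem repeats and let one metabolite pass the inner membrane, often in exchange for another. They move ADP and ATP, phosphate, citrate, amino acids, cofactors, iron and glutathione between cytosol and matrix, and so link respiration to biosynthesis. Resting T cells depend on oxidative metabolism, and activated T cells draw on the same carriers for nucleotide, amino acid and folate metabolism.

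Libraries held 28264655 to 36738202 gene counts. Libraries of both titles expressed the T cell markers: the 11 measured ones summed to 6175 to 6406 CPM in E1KO-titled, against 6954 to 7068 CPM in E1WT-titled, libraries, with 2 called higher and 4 lower. Markers of other cells were present as well. All 4 E1KO-titled libraries lay above all 4 E1WT-titled ones in the summed erythroid markers (173 to 202 CPM with the title E1KO, 66.4 to 80.1 with E1WT, and 7 of 9 tested higher), although the 4 adult globin genes are listed at 0 in all libraries. The same held for monocyte markers (176 to 182 CPM with the title E1KO, 107 to 114 with E1WT, and 6 of 10 higher), dendritic cell markers (30.1 to 34.6 CPM with the title E1KO, 14.7 to 19.1 with E1WT, and 6 of 8 higher) and cycling genes (932 to 978 CPM with the title E1KO, 679 to 749 with E1WT, and 9 of 12 higher). It also held for plasma cell markers (718 to 919 CPM with the title E1KO, 465 to 678 with E1WT, and 1 of 4 higher), NK cell markers (164 to 178 CPM with the title E1KO, 139 to 151 with E1WT, and 3 of 7 higher) and the low megakaryocyte markers (7.98 to 10 CPM with the title E1KO, 5.23 to 7.65 with E1WT, and 0 of 2 called). The sums of B cell, neutrophil and CD8 markers overlapped between titles. Over all 13333 tested genes, 12.2% were called higher and 11.1% lower. Although every mouse is labelled male, Xist had 397 ± 30.9 CPM where the title is E1KO and 1.51 ± 1.09 CPM where it is E1WT (SD, n = 4 each). The Y-linked genes Ddx3y, Kdm5d, Eif2s3y and Uty averaged 47.2% to 50.7% of their E1WT-titled level. Each E1KO-titled library held both signals. Xist ran from 365 to 426 CPM in these libraries, and Ddx3y from 52 to 57.5 CPM. In E1WT-titled libraries Xist ran from 0.55 to 2.89 CPM and Ddx3y from 103 to 116 CPM. Whether cells of several mice, or of both sexes, were pooled in a library is not stated and was not tested. In bulk RNA, fewer cells of a type and less RNA per cell cannot be told apart. The part of these differences in the results below was not tested, except where a value is given.

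To show the start regions of the members that changed most, and of called members that shared the motif CACGTG, RefSeq windows of 300 bases are printed. Each runs from 250 bases before to 50 after an annotated start, on GRCm38.p6, 5′ to 3′ along the gene's strand. The table matched 36 of the 47 members with 46 windows. Capitals mark the E-box CACGTG, which reads the same on both strands and is the core bound by basic helix-loop-helix factors such as MYC and USF. Slc25a13, Slc25a15 and Slc25a33 are members called higher whose window holds it, and Slc25a21 and Slc25a18 are the members with the largest rise and fall.
Slc25a13, chr6:6217124-6217423, minus strand: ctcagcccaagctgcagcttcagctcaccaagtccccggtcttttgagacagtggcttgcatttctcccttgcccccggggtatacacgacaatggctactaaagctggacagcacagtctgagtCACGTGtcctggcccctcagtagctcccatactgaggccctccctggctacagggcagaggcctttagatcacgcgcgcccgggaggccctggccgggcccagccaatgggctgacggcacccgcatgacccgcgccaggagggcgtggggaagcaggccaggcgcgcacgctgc
Slc25a15 (downstream of its windows), chr8:22398228-22398527, minus strand: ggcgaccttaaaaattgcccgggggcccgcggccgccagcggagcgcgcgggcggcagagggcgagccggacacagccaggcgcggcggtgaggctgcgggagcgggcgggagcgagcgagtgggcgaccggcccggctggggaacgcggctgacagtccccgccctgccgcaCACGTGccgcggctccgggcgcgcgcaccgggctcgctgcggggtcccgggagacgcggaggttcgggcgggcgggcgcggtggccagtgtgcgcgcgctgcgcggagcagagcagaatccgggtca
Slc25a33, chr4:149774218-149774517, minus strand: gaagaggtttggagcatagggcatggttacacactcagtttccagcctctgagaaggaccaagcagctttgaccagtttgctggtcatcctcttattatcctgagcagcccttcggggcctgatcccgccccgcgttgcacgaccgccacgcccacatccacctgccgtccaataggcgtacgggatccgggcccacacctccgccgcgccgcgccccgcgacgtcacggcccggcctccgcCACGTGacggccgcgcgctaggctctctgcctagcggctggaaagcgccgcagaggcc
Slc25a21 (upstream of its windows), chr12:57197423-57197722, minus strand: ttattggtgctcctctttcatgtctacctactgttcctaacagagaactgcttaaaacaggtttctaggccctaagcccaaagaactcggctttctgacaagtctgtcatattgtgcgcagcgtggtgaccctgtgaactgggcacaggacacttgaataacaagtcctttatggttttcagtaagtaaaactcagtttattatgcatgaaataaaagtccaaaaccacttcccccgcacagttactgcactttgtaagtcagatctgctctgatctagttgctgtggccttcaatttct
Slc25a18, chr6:120773518-120773817, plus strand: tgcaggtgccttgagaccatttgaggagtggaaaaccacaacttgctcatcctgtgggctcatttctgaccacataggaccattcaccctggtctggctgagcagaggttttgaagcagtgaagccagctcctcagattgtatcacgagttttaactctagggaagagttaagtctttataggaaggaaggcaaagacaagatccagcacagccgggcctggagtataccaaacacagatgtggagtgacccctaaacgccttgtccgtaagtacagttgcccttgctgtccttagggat

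The E-box stood in 8 of 46 member windows, or 17.4%, against 7.15% of all 32851 windows in the table. Besides the 3 printed, it was found in Slc25a1, Slc25a14 and Slc25a36, which were not called, and in Slc25a31, which was too low to test. None of the printed windows of Slc25a21 and Slc25a18 holds it. The ETS core CCGGAAG (either strand) stood in 7 member windows, or 15.2%, against 8.86% of all windows. Its called holders, not printed, were Slc25a20 (higher) and Slc25a25 (lower). Slc25a3, Slc25a4, Slc25a17 and Slc25a38 held it and were not called, and Slc25a54 held it and was not tested. The NRF1 motif (GCGCA and GCGC with any base between, either strand) stood in 2 member windows, or 4.35% against 4.6%. The amino acid response element TGATGNAA (either strand) stood in 0, against 3.97%. Member windows were also richer in G and C, with a median of 59.3% against 52.7% over all windows. The window of Slc25a21 holds 43% and that of Slc25a18 49.3%, while that of Slc25a15 holds 79%. A match of letters shows neither binding nor use of the start.

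The family changed member by member and not as a whole. Of the 47 members, 42 had enough counts to be tested, and 14 of them passed at an edgeR adjusted p under 0.05. In E1KO-titled libraries, 9 rose and 5 fell. That is 33.3% of tested members, where 23.3% of all 13333 tested genes were called (12.2% higher and 11.1% lower). The groups named below are small, and their counts of calls stand beside these shares. With scaling by library size alone, 10 members were called higher and 3 lower. The share of higher calls over all genes was then 68.3%, against 52.2% with TMM. The median log2 fold of tested members was -0.005, against 0.007 over all tested genes, and their median size of change was 0.16 against 0.18. All 14 called members had no overlap between titles, and Slc25a43 was the remaining separated member. These 15 are 35.7% of the tested members, where 26.0% of all genes were separated.

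**Figure D1:**
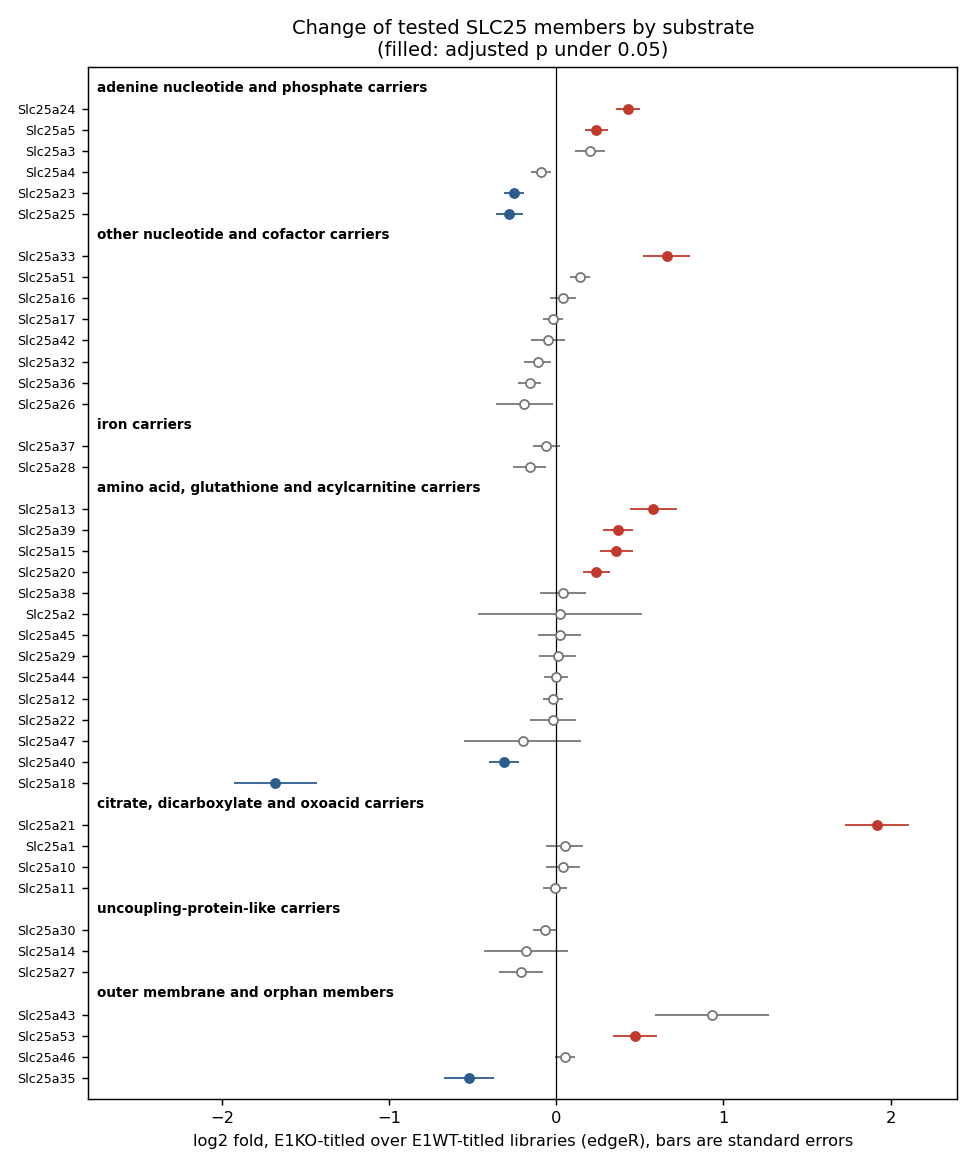
Log2 fold of 41 of the 42 tested members, E1KO-titled over E1WT-titled libraries, with its standard error, grouped by substrate. Filled red points are the 9 members called higher and filled blue points the 5 called lower at edgeR adjusted p under 0.05; changes in both directions occur within several substrate groups.

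In level per kilobase of exons, a few carriers dominated the family. Slc25a5 (ANT2, the ADP/ATP exchanger of proliferating cells) came first, with 224 CPM per kilobase in E1KO-titled and 190 in E1WT-titled libraries. It made up 37.8% to 40.4% of the summed per-kilobase level of the family in E1KO-titled and 34.5% to 36.5% in E1WT-titled libraries. Slc25a3 (the phosphate carrier) followed, with 55.3 CPM per kilobase in E1KO-titled and 48 in E1WT-titled libraries. Slc25a11 (the oxoglutarate/malate carrier) had 36.7 in E1KO-titled and 36.9 in E1WT-titled libraries, and Slc25a4 (ANT1) had 34.3 in E1KO-titled and 36.4 in E1WT-titled ones.

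Next in the order came Slc25a51, the NAD+ carrier, with 20.8 CPM per kilobase in E1KO-titled and 18.9 in E1WT-titled libraries, and Slc25a39 with 19.5 in E1KO-titled and 15.1 in E1WT-titled ones. The first 10 were completed by Slc25a44 (branched-chain amino acids), Slc25a12, Slc25a17 (the peroxisomal carrier) and Slc25a1 (the citrate carrier). In E1KO-titled libraries these stood at 13.9, 13.1, 12.2 and 12.1 CPM per kilobase, and in E1WT-titled libraries at 14, 13.3, 12.4 and 11.6. Neighbours in this order from Slc25a44 to Slc25a1 differed by less than 1 CPM per kilobase in either title, where their SDs over 4 libraries reached 1.56. Only Slc25a5 and Slc25a39 of these 10 were called. Among tested members, Slc25a2, Slc25a43 and Slc25a47 stayed under 0.5 CPM per kilobase in both titles, and the 5 members not tested were lower still in E1WT-titled libraries. Slc25a21 had 1.04 CPM per kilobase in E1KO-titled and 0.276 in E1WT-titled libraries. Across the 42 tested members, the size of the log2 fold went with low level (Pearson r = -0.46, Spearman rho = -0.38, across genes that share libraries), and low counts are also measured less exactly.

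**Figure D2:**
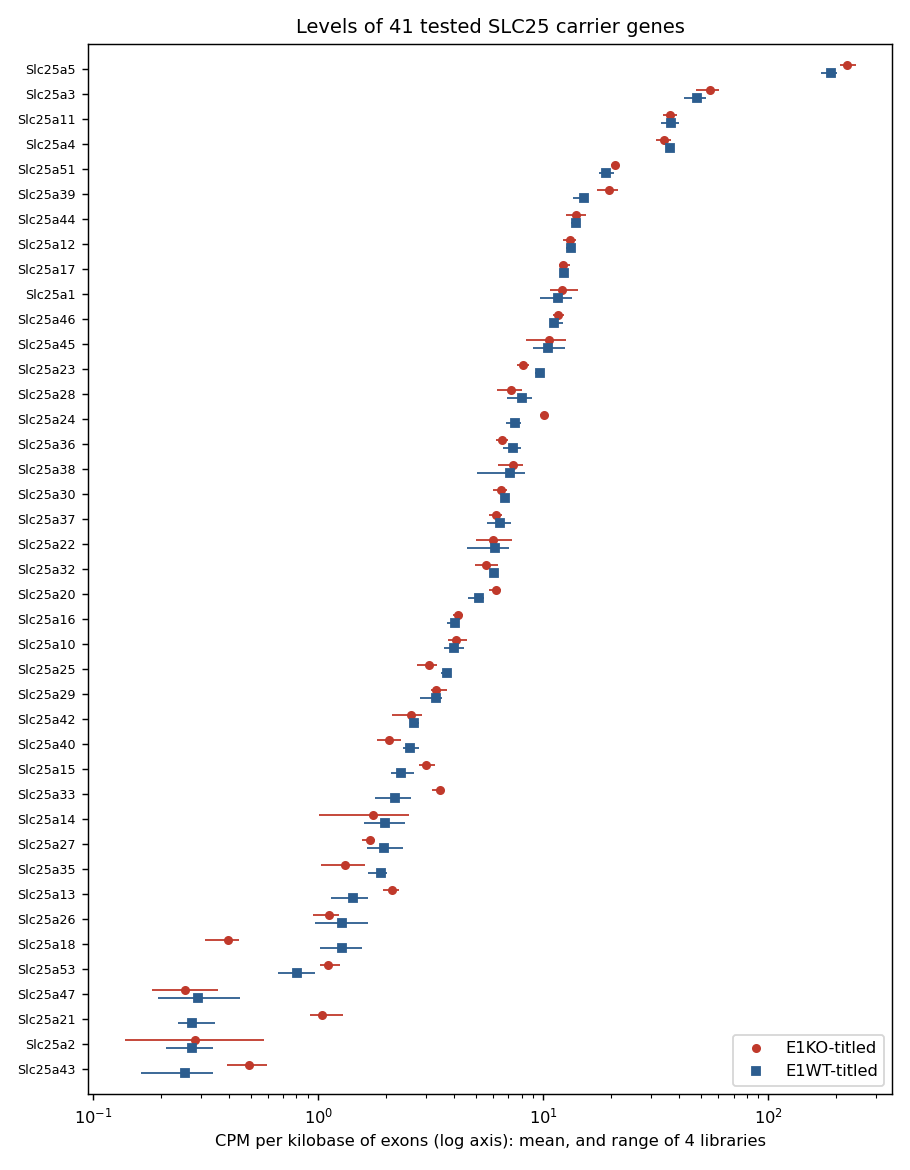
CPM per kilobase of exons (log axis) of 41 of the 42 tested members, ordered by their level in E1WT-titled libraries; circles and squares are means over 4 E1KO-titled and 4 E1WT-titled libraries and bars run from the lowest to the highest library. Slc25a5 stands at the top (224 in E1KO-titled and 190 in E1WT-titled libraries), and Slc25a21 and Slc25a18 show the widest gaps between titles.

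Among the adenine nucleotide and phosphate carriers, 2 of 6 tested members rose and 2 fell. Over all tested genes, 12.2% were higher and 11.1% lower. Slc25a5 (chrX:36795651-36798807, GRCm38) had 343, 349, 377 and 403 CPM in E1KO-titled libraries and 322, 331, 315 and 281 CPM in E1WT-titled libraries. The lowest E1KO-titled library lay just above the highest E1WT-titled one, and the log2 fold was 0.24 ± 0.07 (edgeR adjusted p = 0.0304). The call was lost without E1KO 3 or 4 or E1WT 1, 3 or 4 (adjusted p 0.0598 to 0.0994). The gene has 1 named pseudogene in the annotation, with which it may share reads. Its relative Slc25a4 averaged 80.7 CPM in E1KO-titled and 85.5 in E1WT-titled libraries and was not called (log2 fold -0.09 ± 0.06). Slc25a3 averaged 307 ± 32.3 CPM in the E1KO-titled set and 266 ± 24 CPM in the E1WT-titled one (SD, n = 4 each) and was not called (log2 fold 0.20 ± 0.09, edgeR adjusted p = 0.112), but was called without E1KO 1 (adjusted p = 0.0271).

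The calcium-regulated ATP-Mg/phosphate carriers, which set the adenine nucleotide content of the matrix, moved in opposite directions. Slc25a24 (chr3:109123149-109168457) had 33.2, 35.2, 33.6 and 36.0 CPM in E1KO-titled libraries and 23.5, 27.4, 26.5 and 25 CPM in E1WT-titled libraries. All 4 E1KO-titled libraries were higher, and the log2 fold was 0.43 ± 0.07 (edgeR adjusted p = 0.00136). Slc25a23 (chr17:57043711-57059863) had 40.3, 42.5, 45.8 and 42.6 CPM in E1KO-titled libraries and 53.3, 48.6, 50.7 and 51.6 CPM in E1WT-titled libraries. All 4 E1KO-titled libraries were lower (log2 fold -0.25 ± 0.06, edgeR adjusted p = 0.0118). Slc25a25 (chr2:32414487-32451445) had 21.6, 23.2, 26.6 and 25.8 CPM in E1KO-titled libraries and 30.5, 29.8, 29.6 and 27.7 CPM in E1WT-titled libraries. It also fell in every E1KO-titled library (log2 fold -0.28 ± 0.08, edgeR adjusted p = 0.0314), but lost its call without E1KO 1 or 2 or E1WT 1, 2 or 3 (adjusted p 0.0537 to 0.0882), and with library size alone (0.093). The calls of Slc25a24 and Slc25a23 held under all 17 alternatives. Their relative Slc25a41 had 0.142 CPM in E1KO-titled, against 0.0498 CPM in E1WT-titled, libraries and was not tested. Slc25a31 (ANT4, the testis form) had 0, 2, 4 and 12 counts in E1KO-titled libraries and 0 in all E1WT-titled ones, also too few to test.

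Related carriers stood in other proportions within each library. The level of Slc25a24 over Slc25a23, each per kilobase, was 1.27, 1.28, 1.13 and 1.30 in E1KO-titled libraries and 0.681, 0.871, 0.804 and 0.748 in E1WT-titled libraries. Per kilobase, Slc25a24 was thus the higher of the pair in each E1KO-titled library and the lower in each E1WT-titled one. In CPM not divided by length it was the lower in every library. The change of order thus rests on the annotated exon lengths, 3431 bases for Slc25a24 and 5294 for Slc25a23. Slc25a24 over Slc25a25 averaged 3.27 ± 0.286 in E1KO-titled and 2 ± 0.157 in E1WT-titled libraries, and Slc25a5 over Slc25a4 averaged 6.52 ± 0.104 in E1KO-titled and 5.22 ± 0.265 in E1WT-titled ones (SD, n = 4 each). Neither of these ratios overlapped between titles. These ratios do not depend on scaling between libraries, and were not tested, since each restates folds already given.

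**Figure D3:**
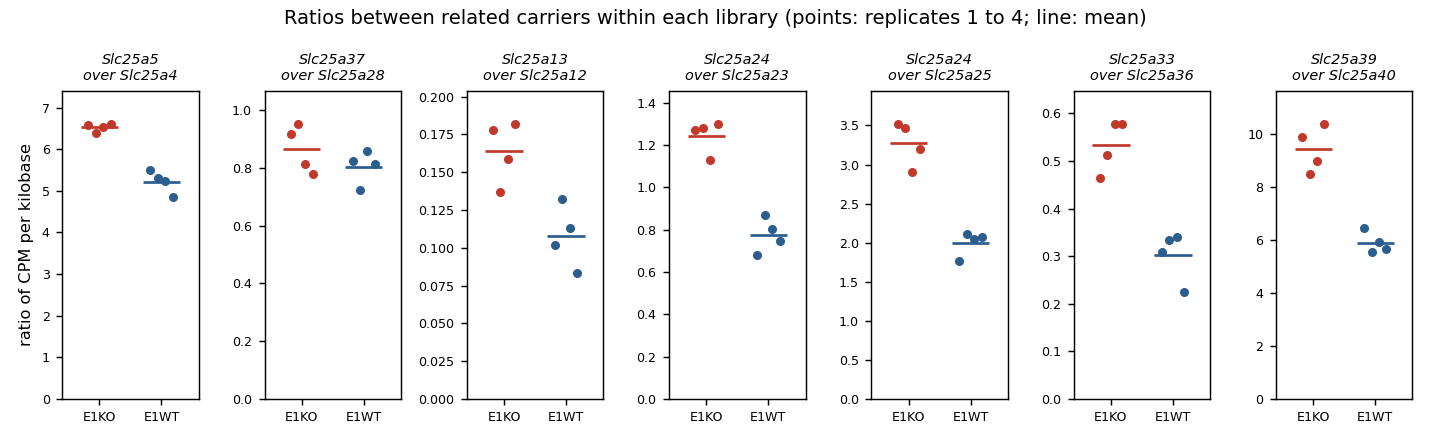
Ratio of CPM per kilobase between related carriers in each library, E1KO-titled left and E1WT-titled right, with the mean as a line. The libraries separate by title in 6 of the 7 ratios, and overlap for the iron carriers Slc25a37 over Slc25a28.

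Among the carriers of other nucleotides and cofactors, 1 of 9 was called. Slc25a33 (chr4:149744036-149774277), a carrier of pyrimidine nucleotides needed for mitochondrial DNA and RNA synthesis, had 6.05, 6.71, 6.72 and 6.74 CPM in E1KO-titled libraries. It had 4.22, 4.15, 4.87 and 3.37 CPM in E1WT-titled libraries. Every E1KO-titled library was higher, and the log2 fold was 0.66 ± 0.14 (edgeR adjusted p = 0.00523, called under all 17 alternatives). Its more abundant relative Slc25a36, which carries pyrimidine nucleotides too, averaged 62.8 CPM in E1KO-titled, against 70.4 CPM in E1WT-titled, libraries (log2 fold -0.16 ± 0.07) and was not called. It passed without E1WT 2 (adjusted p = 0.0479). The per-kilobase ratio of Slc25a33 to Slc25a36 was 0.533 ± 0.0556 in E1KO-titled and 0.302 ± 0.0535 in E1WT-titled libraries, without overlap.

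The NAD+ carrier Slc25a51 averaged 115 CPM in E1KO-titled and 104 in E1WT-titled libraries (log2 fold 0.14 ± 0.06, edgeR adjusted p = 0.119), and was called without E1WT 4 (0.0454) and with library size alone (0.0214). Further members of the group that were not called were Slc25a16 and Slc25a42 (both linked to coenzyme A), Slc25a17, Slc25a26 (S-adenosylmethionine) and Slc25a32 (folate and FAD). Their log2 folds ran from -0.19 to 0.04. The folate enzymes of the matrix showed 1 of 5 higher, Mthfd1l (log2 fold 0.22 ± 0.06, edgeR adjusted p = 0.018), a call lost without E1KO 2 or E1WT 1 or 3 (0.0562 to 0.0636).

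The mitochondrial iron carriers, mitoferrin 1 (Slc25a37) and mitoferrin 2 (Slc25a28), were called by neither edgeR, DESeq2 nor limma-voom, and 0 of 2 had an unadjusted edgeR p under 0.05. Slc25a37 had 34.5, 39.3, 39.2 and 35.4 CPM in E1KO-titled libraries and 39.0, 38.8, 43.2 and 33.7 CPM in E1WT-titled libraries. Slc25a28 had 23.4, 25.7, 30.0 and 28.4 CPM in E1KO-titled libraries and 29.5, 33.5, 31.4 and 25.8 CPM in E1WT-titled libraries. The titles overlapped for both genes, with log2 folds of -0.06 ± 0.08 and -0.16 ± 0.10 (edgeR adjusted p = 0.648 and 0.275). Their ratio per kilobase overlapped as well, at 0.864 ± 0.0826 in E1KO-titled and 0.803 ± 0.0577 in E1WT-titled libraries.

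Heme and iron-sulfur synthesis are the pathways that take up the imported iron. Of 15 of their genes tested, 5 rose and 0 fell in E1KO-titled libraries by edgeR, where 12.2% of all tested genes were higher and 23.3% were called in either direction. An unadjusted p under 0.05, DESeq2 and limma-voom also gave 0 lower. They summed to 486 to 518 CPM in E1KO-titled against 428 to 464 CPM in E1WT-titled libraries. The largest rises were in Alad, which joins aminolevulinic acid into porphobilinogen (log2 fold 0.58 ± 0.10), and Cpox, a late oxidase of the pathway (0.57 ± 0.06, edgeR adjusted p = 7.41e-05). Abcb10, a mitochondrial transporter linked to heme synthesis, rose too (0.50 ± 0.11). Urod, named after its value was seen, was higher by 0.28 ± 0.08 with its lowest E1KO-titled and highest E1WT-titled library both at 36.9 CPM, and lost its call without E1KO 3 or 4 or E1WT 2, 3 or 4 (adjusted p 0.0533 to 0.0955). The summed erythroid markers, for which heme synthesis is typical, stood at 2.58 times their E1WT-titled level, with Car1 at 103 CPM in E1KO-titled and 35.3 in E1WT-titled libraries and Klf1 at 13.5 CPM in E1KO-titled and 4.42 in E1WT-titled ones. The erythroid marker Alas2, the first enzyme of heme synthesis in red cells, had 1.13 CPM in E1KO-titled, against 1.91 CPM in E1WT-titled, libraries and was not called. Slc25a38, the glycine carrier that feeds heme synthesis, averaged 20.1 CPM in E1KO-titled and 19.6 in E1WT-titled libraries and was not called. The part of erythroid RNA in the rise of the heme enzymes was not tested.

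**Figure D4:**
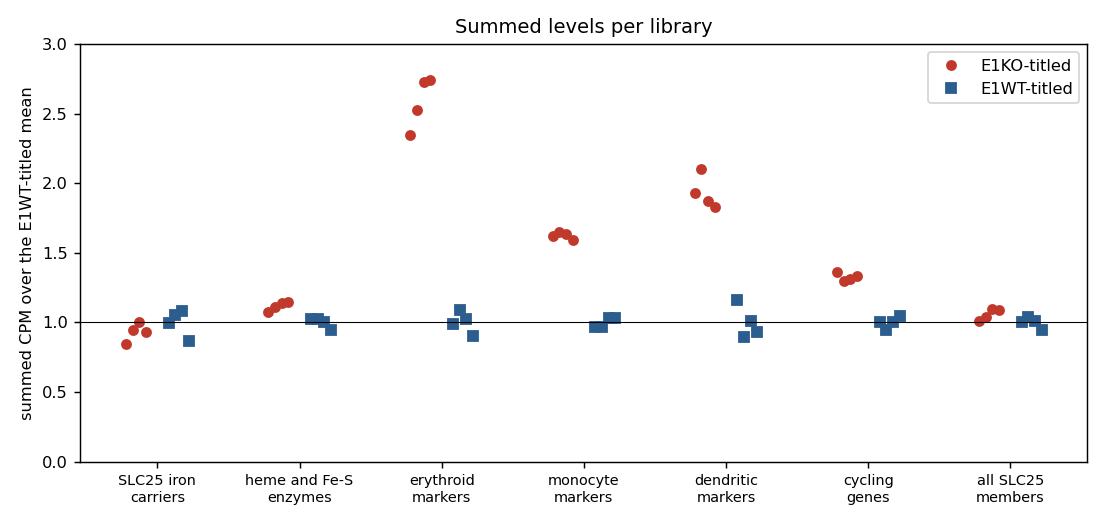
Summed CPM of gene groups in each library, divided by the mean of the E1WT-titled libraries (line at 1); circles are the 4 E1KO-titled and squares the 4 E1WT-titled libraries. The 2 SLC25 iron carriers and the family as a whole overlap between titles, while heme enzymes, erythroid, monocyte and dendritic cell markers and cycling genes lie higher in E1KO-titled libraries.

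Of the 14 carriers of amino acids, glutathione and acylcarnitines, 4 rose and 2 fell. Over all tested genes, 12.2% were higher and 11.1% lower. The deepest fall of the family was that of Slc25a18 (chr6:120773578-120794336), a glutamate carrier. It had 0.798, 0.850, 0.597 and 0.779 CPM in E1KO-titled libraries and 3, 2.06, 1.95 and 2.72 CPM in E1WT-titled libraries. No library overlapped, and the log2 fold was -1.68 ± 0.25 (edgeR adjusted p = 0.000639, called under all 17 alternatives). These levels rest on 102 counts over the E1KO-titled and 308 over the E1WT-titled libraries. The gene shares 32 exonic bases with Atp6v1e1 on the opposite strand, which was not called (35.9 CPM in E1KO-titled and 41.3 in E1WT-titled libraries). The other glutamate carrier, Slc25a22, was far more abundant, at 6.00 CPM per kilobase in E1KO-titled and 6.09 in E1WT-titled libraries, and did not pass the test (log2 fold -0.02 ± 0.14).

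The aspartate/glutamate carriers, which drive the malate-aspartate shuttle, also differed from each other. Slc25a13 (citrin, chr6:6041218-6217173) had 8.69, 7.35, 7.82 and 8.51 CPM in E1KO-titled libraries and 5.05, 6.33, 5.88 and 4.34 CPM in E1WT-titled libraries. It was higher in every E1KO-titled library, with a log2 fold of 0.58 ± 0.14 (edgeR adjusted p = 0.010, called under all 17 alternatives). Slc25a12 (aralar), the more abundant form, averaged 95.8 CPM in E1KO-titled and 97.4 in E1WT-titled libraries and was not called (log2 fold -0.02 ± 0.06). The ratio of Slc25a13 to Slc25a12 per kilobase was 0.164 ± 0.0205 in E1KO-titled and 0.108 ± 0.0202 in E1WT-titled libraries, so that Slc25a12 remained the main form in all 8.

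Among the shuttle and citrate enzymes, 1 of 10 rose and 2 fell, where 12.2% of all tested genes were higher and 11.1% lower. Got1, the cytosolic aspartate aminotransferase that works beside these carriers, had 13.3, 10.3, 13.5 and 13.3 CPM in E1KO-titled libraries and 26.9, 30.6, 25.4 and 25.6 CPM in E1WT-titled libraries. It was lower in every E1KO-titled library (log2 fold -1.10 ± 0.11, edgeR adjusted p = 4.12e-05). Its mitochondrial counterpart Got2 averaged 158 CPM in E1KO-titled and 137 in E1WT-titled libraries and rose (0.21 ± 0.05, edgeR adjusted p = 0.00969). Idh2 (the NADP-linked isocitrate dehydrogenase of the matrix) averaged 42.3 CPM in E1KO-titled and 53.1 in E1WT-titled libraries and fell (-0.33 ± 0.07, edgeR adjusted p = 0.00827).

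The glutathione carriers Slc25a39 and Slc25a40 moved apart. Slc25a39 (chr11:102402985-102407946) had 49.9, 47.8, 58.0 and 59.4 CPM in E1KO-titled libraries and 43.7, 43.0, 42.5 and 37.2 CPM in E1WT-titled libraries. All E1KO-titled libraries were higher (log2 fold 0.37 ± 0.09, edgeR adjusted p = 0.00921, called under all 17 alternatives). Slc25a40 (chr5:8422850-8454797) had 15.3, 17.1, 19.6 and 17.3 CPM in E1KO-titled libraries and 20.6, 23.6, 21.8 and 20 CPM in E1WT-titled libraries. All E1KO-titled libraries were lower, if by little in the closest pair, and the log2 fold was -0.31 ± 0.09 (edgeR adjusted p = 0.0336). That call was lost without E1KO 1, 2 or 4 or E1WT 1, 2 or 3 (adjusted p 0.0595 to 0.0802), and with library size alone (0.0912). The ratio of Slc25a39 to Slc25a40 per kilobase was 9.47 ± 0.87 in E1KO-titled and 5.90 ± 0.404 in E1WT-titled libraries, without overlap.

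Slc25a15 (chr8:22375551-22398597), which exchanges ornithine and citrulline in the urea cycle, had 15.8, 18.6, 16.1 and 17.0 CPM in E1KO-titled libraries and 11.8, 12.6, 12.9 and 15 CPM in E1WT-titled libraries. The titles did not overlap, and it rose by a log2 fold of 0.36 ± 0.10 (edgeR adjusted p = 0.0211). The call was lost without E1KO 2 or 4 or E1WT 1 or 3 (adjusted p 0.0542 to 0.0671). Slc25a20 (chr9:108662088-108684641), the carnitine/acylcarnitine carrier of fatty acid oxidation, had 30.0, 31.3, 29.8 and 27.7 CPM in E1KO-titled libraries and 26.5, 25.9, 26.1 and 22.3 CPM in E1WT-titled libraries. It was separated by title (log2 fold 0.24 ± 0.08, edgeR adjusted p = 0.0473), but the call was lost when any 1 of E1KO 1, 2, 3 and 4 or E1WT 1, 2, 3 and 4 was left out (0.0519 to 0.124). The members not called included Slc25a44, Slc25a45 and Slc25a29 (basic amino acids), with log2 folds of -0.001 to 0.02. Slc25a2 and Slc25a47 were below 1 CPM on average in both titles and their log2 folds had standard errors of 0.49 and 0.35.

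Among the citrate, dicarboxylate and oxoacid carriers, 1 of 4 was called, and it had the largest change of the family. Slc25a21 (chr12:56712634-57197472), the oxodicarboxylate carrier of lysine and tryptophan breakdown, had 4.46, 6.29, 4.68 and 4.94 CPM in E1KO-titled libraries and 1.23, 1.16, 1.70 and 1.30 CPM in E1WT-titled libraries. Each E1KO-titled library was well above each E1WT-titled one, and the log2 fold was 1.92 ± 0.19 (edgeR adjusted p = 5.0e-05, called under all 17 alternatives). It shares 189 exonic bases with Pax9 on the opposite strand, which had 0.0944 CPM in E1KO-titled, against 0.144 CPM in E1WT-titled, libraries. With Slc25a18 it is 1 of 2 called members changed at least 2-fold. The others of this group, Slc25a1 (citrate), Slc25a10 (dicarboxylate) and Slc25a11, had log2 folds of 0.05, 0.04 and -0.008 and were not called.

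Of the 3 uncoupling-protein-like members, 0 were called by edgeR, DESeq2 or limma-voom, and 0 had an unadjusted edgeR p under 0.05. Slc25a14, Slc25a27 and Slc25a30 had log2 folds of -0.18, -0.21 and -0.07. They summed to 38.2 to 42.6 CPM in E1KO-titled, against 42.3 to 43.9 CPM in E1WT-titled, libraries, with overlap. Uncoupling proteins proper, which let protons return to the matrix, belong to the same fold but have other symbols. Ucp2, the form of lymphoid cells, had 477, 539, 590 and 584 CPM in E1KO-titled libraries and 686, 719, 642 and 580 CPM in E1WT-titled libraries. The titles overlapped through E1WT 4, and the log2 fold was -0.26 ± 0.08 (edgeR adjusted p = 0.0407). It was not called without E1KO 1, 2 or 4 or E1WT 1, 2 or 3 (0.0566 to 0.113), nor with library size alone (0.118). Mtch1, an outer membrane relative, had 91.9 to 92.8 CPM in E1KO-titled, against 71.5 to 81.7 CPM in E1WT-titled, libraries and was higher (0.28 ± 0.05, edgeR adjusted p = 0.00331).

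Of the members of the outer membrane and those without a settled substrate, 1 of 4 tested rose and 1 fell. Slc25a53 (chrX:136981116-137038302) had 9.05, 8.08, 9.90 and 8.36 CPM in E1KO-titled libraries and 5.27, 7.67, 6.57 and 6.04 CPM in E1WT-titled libraries. It was higher in every E1KO-titled library (log2 fold 0.47 ± 0.13, edgeR adjusted p = 0.0254), and lost its call without E1KO 3 or E1WT 1, 3 or 4 (0.0563 to 0.0764). Slc25a35 (chr11:68968131-68974365) had 5.03, 3.77, 5.94 and 4.67 CPM in E1KO-titled libraries and 6.14, 7.45, 7.29 and 7 CPM in E1WT-titled libraries. It was lower in every E1KO-titled library (-0.52 ± 0.15, edgeR adjusted p = 0.0258), and lost its call without E1KO 2 or 4 or E1WT 2 or 3 (0.0552 to 0.0697). It shares 1151 exonic bases with Rangrf on the opposite strand, which was higher (0.43 ± 0.13, edgeR adjusted p = 0.0311). Since the strand setting of the counting is not given, reads of this overlap cannot be told apart. The same limit holds for other called members that share exonic bases on the opposite strand. Besides Slc25a18 and Slc25a21, these are Slc25a25 (379 bases with Naif1), Slc25a33 (281 with Gm13068) and Slc25a23 (168 with Gm17168). Naif1 was not called, and Gm13068 and Gm17168 are not among the counted symbols.

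Slc25a46, which sits in the outer membrane and acts in mitochondrial shape, averaged 62.8 CPM in E1KO-titled and 60.7 in E1WT-titled libraries and was not called. Slc25a43 had 1.02, 0.698, 0.754 and 1.05 CPM in E1KO-titled libraries and 0.541, 0.605, 0.289 and 0.397 CPM in E1WT-titled libraries. The titles did not overlap, but the change missed the threshold (log2 fold 0.93 ± 0.34, edgeR adjusted p = 0.0728). Slc25a34, Slc25a48 and Slc25a54 were not tested, with 41, 0 and 5 counts summed over the E1KO-titled libraries and 39, 0 and 0 over the E1WT-titled ones.

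**Figure D5:**
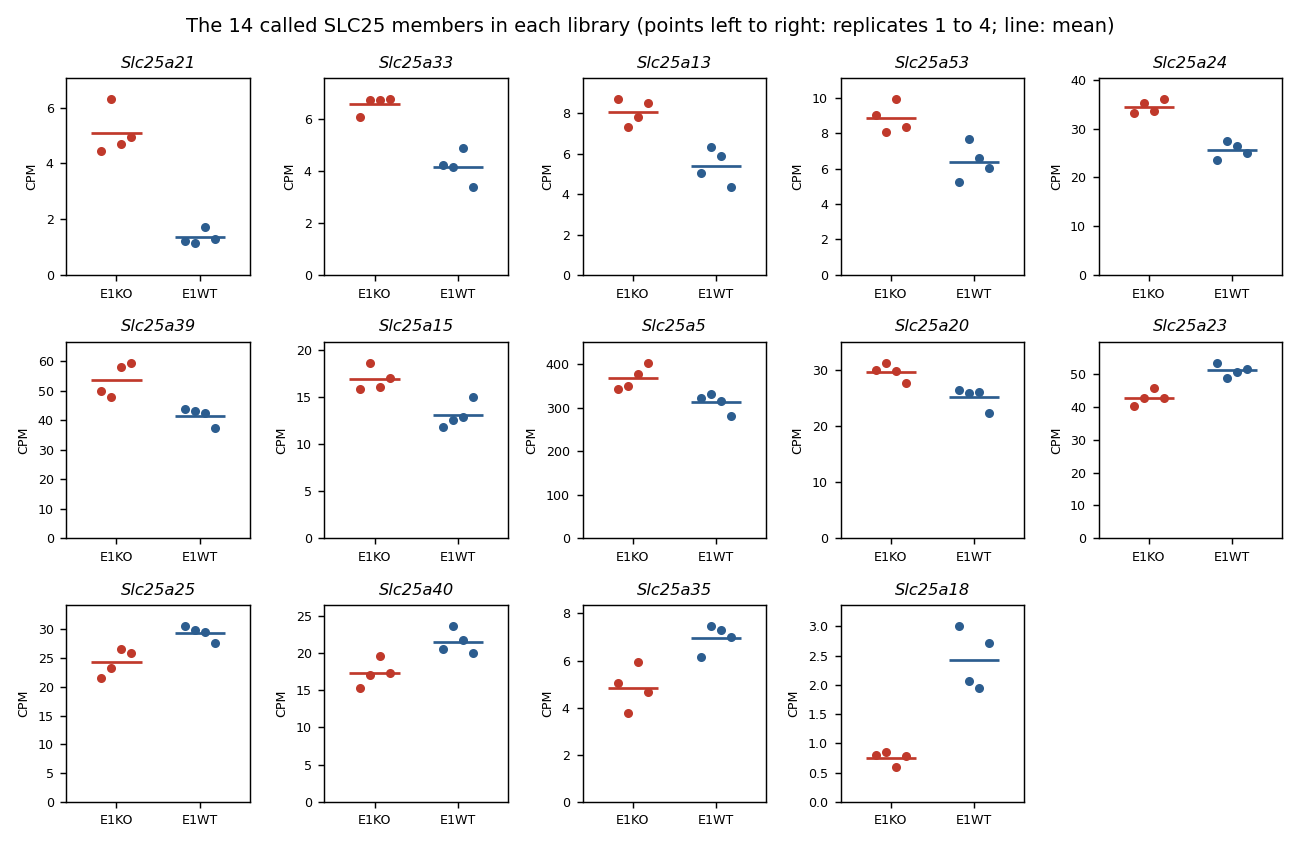
TMM-scaled CPM of the 14 called members in each library, E1KO-titled left and E1WT-titled right, on axes that start at 0; the line is the mean of 4. The titles do not overlap for any of the 14, and the gap is widest relative to the level for Slc25a21 and Slc25a18.

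Of the 4 members on the X chromosome, Slc25a5 and Slc25a53 were called higher, and Slc25a14 and Slc25a43 were not called. They summed to 356 to 417 CPM in E1KO-titled, against 292 to 344 CPM in E1WT-titled, libraries. Most of this sum was Slc25a5, with 343 to 403 CPM in E1KO-titled and 281 to 331 CPM in E1WT-titled libraries. The log2 fold of Slc25a14 was -0.18. Of 427 tested X-linked genes, 14.1% were higher and 24.8% were called in either direction. The libraries that are higher for Slc25a5 and Slc25a53 are also those with high Xist and low Y-linked genes. Title and these signs of sex cannot be told apart. Slc25a43 lies 18.4 kilobases from Slc25a5. On chromosome 6, which carries Pcbp1, Slc25a26 lies nearest to it at 8.0 megabases and was not called. Slc25a18, called lower, lies 34.2 megabases from Pcbp1, and Slc25a13, called higher, lies 80.3 megabases from it.

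The TIM22 import route brings carriers into the inner membrane. Of its 9 tested genes 1 was called, where 23.3% of all genes were, and this was the small chaperone Timm8a1 (X-linked, log2 fold 0.34 ± 0.10, edgeR adjusted p = 0.0315), and it lost its call without E1KO 2, 3 or 4 or E1WT 1, 3 or 4 (0.0552 to 0.0821). Of the 5 porins and pyruvate carriers, 2 rose, where 12.2% of all tested genes were higher. Vdac1, a porin of the outer membrane, had 102 to 112 CPM in E1KO-titled, against 82.9 to 91.3 CPM in E1WT-titled, libraries (0.30 ± 0.05, edgeR adjusted p = 0.00233). Vdac3 overlapped between titles (0.20 ± 0.06, edgeR adjusted p = 0.044), and lost its call without E1KO 2, 3 or 4 or E1WT 1, 3 or 4 (0.0711 to 0.129), with RLE scaling (0.0523), with no filter (0.0651) and with the replicate block (0.0689).

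Of 11 regulators of mitochondrial biogenesis, 0 rose and 2 fell by edgeR, while an unadjusted p under 0.05 and DESeq2 each gave 1 higher and limma-voom 0. Over all tested genes, 12.2% were higher and 11.1% lower by edgeR. Ppargc1b, a coactivator, averaged 13.2 ± 1.71 CPM in E1KO-titled and 18 ± 1.45 in E1WT-titled libraries (SD, n = 4 each; log2 fold -0.45 ± 0.11, edgeR adjusted p = 0.0116). Nrf1, the factor whose motif was searched above, averaged 60.9 CPM in E1KO-titled and 69.9 in E1WT-titled libraries (-0.20 ± 0.05, edgeR adjusted p = 0.0175), and was not called without E1KO 2 or E1WT 1 (0.0591 and 0.0605), nor with library size alone (0.0776), the replicate block (0.0626) or the exon-length trend removed (0.19). Tfam, which packs mitochondrial DNA and was picked after its value was known, was at 63.5 CPM in both titles.

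Of the members not called, 21 had a mean of at least 10 CPM. Their estimated log2 folds ran from -0.16 to 0.20, a range that being not called in part sets, and Slc25a22 and Slc25a38 among them had standard errors of 0.14. The summed CPM of the whole family was 1853 ± 72.3 in E1KO-titled and 1749 ± 67.5 in E1WT-titled libraries (SD, n = 4 each), with overlap. Without Slc25a5 and Slc25a3 the sums were 1178 ± 20.3 CPM in E1KO-titled and 1170 ± 23.2 in E1WT-titled libraries. Of the 14 called members, 7 held their call under all 17 alternatives: Slc25a13, Slc25a18, Slc25a21, Slc25a23, Slc25a24, Slc25a33 and Slc25a39.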

How the data were processed

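The authors deposited raw read counts, with 1 whole number for each symbol in each library. The submitters' processing notes list TopHat2 2.1.0, HTSeq 0.9.1 and mm10. Annotation, strandedness and filters were not given in the sources used here. Per the labels' protocols, 50 ng of RNA per library was sequenced as paired ends of 75 bases. The 5 rows that name no gene were left out. They held 28.2% to 30.8% of all counts in E1KO-titled and 33.3% to 37.0% in E1WT-titled libraries. Reads aligned to more than 1 place, 1 of these rows, made up 11.1% to 12.0% in E1KO-titled and 12.6% to 13.2% in E1WT-titled libraries. Both shares thus differed between titles without overlap, and their part in the results was not tested. Depths were 28264655 to 36738202 gene counts.

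Counts were scaled by TMM and tested in edgeR 4.0.16 (R 4.3.3) with its default filter (count minimum 10, total minimum 15) and quasi-likelihood test over 13333 genes, all 8 libraries in 1 fit, E1KO-titled over E1WT-titled, with Benjamini-Hochberg adjustment at 0.05. The standard error of a log2 fold was taken from its F statistic. The step was tested on simulated data with known changes. Positions and exon lengths come from GENCODE M21 on GRCm38, which is mm10. Promoter windows come from RefSeq. All members are named or counted, called ones with their values, and up to 4 called genes with the smallest p in each related list. The values of 1 member and of 1 related gene are not reported here, though both are in the counts and sums. Members, lists and tests were chosen with earlier results of these data known.

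The labels do not tie libraries to separate animals, so p-values measure only how far these libraries vary, and that variation may be technical. Each pair of libraries with the same title differed by more than sampling noise (chi-square per degree of freedom 4.1 to 60.1). Alternatives were other scaling (RLE, library size alone), filters (none, CPM of at least 1 in at least 4 libraries), DESeq2 1.42.0, limma-voom (limma 3.58.1), a block on replicate number, leaving out each library, E1KO 1 and E1WT 4 both left out, and an exon-length trend removed.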

Additional observations from a re-analysis of the deposited data

Results flagged for a closer look

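In 7 of 86 groups of 4 libraries, 1 library stood apart from the other 3 in a member's CPM, by a gap beyond the 95% critical value of Dixon's ratio. Chance flags about 1 in 20 groups. In E1KO-titled libraries, Slc25a33 was lowest in replicate 1 at 6.05 CPM (the others 6.71 to 6.74), Slc25a29 was highest in replicate 3 at 9.71 CPM (8.29 to 8.42), and Slc25a51 was lowest in replicate 3 at 110 CPM (116 in each of the others). In E1WT-titled libraries, replicate 4 was lowest for Slc25a16 at 17.9 CPM (19.7 to 20) and for Slc25a20 at 22.3 CPM (25.9 to 26.5), and highest for Slc25a46 at 66.1 CPM (58.4 to 59.1). Slc25a42 was highest in E1WT replicate 3 at 16.8 CPM (15.7 to 15.8).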

How the results depend on the processing

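Leaving out 1 library gave 5 to 9 members called higher (9 with all) and 2 to 5 called lower (5 with all). Over all genes it gave 1194 to 1659 higher (1623 with all) and 1010 to 1566 lower (1485 with all). Library size alone gave 3 members lower, and the replicate block 2 lower and 6 higher. Over all genes, library size alone gave 1046 lower, and the block 1005 lower and 1151 higher. The median log2 fold of members, -0.005, was 0.06 with library size alone and 0.01 with no filter, and ran from -0.04 to 0.03 without single libraries, so its sign carries no weight. The summed ratio of 1.06 was 1.11 with library size alone, and 1.04 to 1.08 without single libraries. Of the related mitochondrial genes, 16 were called, where 23.3% of all 13333 tested genes were. Their lists held 3, 9, 5, 10, 5, 15 and 11 tested genes. The replicate block gave 10 calls, and leaving out single libraries 11 to 18. The log2 fold of Pcbp1 was -2.54 to -2.45 without single libraries. Same-numbered libraries of the titles had correlations of -0.10 to 0.01 in their deviations from the title means. Differently numbered ones had -0.32 to 0.26, with 0.26 for E1KO 1 with E1WT 4 and for E1KO 3 with E1WT 2. With 4 libraries per title, such values cannot show whether the numbers pair the samples. The block ended the calls of the members Slc25a5 (adjusted p = 0.1), Slc25a20 (0.0729), Slc25a25 (0.0814), Slc25a35 (0.0545), Slc25a40 (0.061) and Slc25a53 (0.0582). With the exon-length trend removed, Slc25a25 (0.0755) and Slc25a40 (0.0872) lost their calls and Slc25a4 gained one (0.0369). Slc25a20 also lost its call with RLE scaling (0.0517) and no filter (0.0699). Without E1KO 1 and E1WT 4 together, Slc25a20 (0.156) and Slc25a53 (0.0696) were not called, and Slc25a3 was (0.0307). DESeq2 and limma-voom each called 9 higher and 5 lower. Among related genes, the block also ended the calls of Ucp2 (0.103), Timm8a1 (0.0579), Vdac3 (0.0689), Mthfd1l (0.0553), Urod (0.0651) and Nrf1 (0.0626). The exon-length trend removed ended those of Ucp2 (0.0632), Urod (0.0591) and Nrf1 (0.19), and leaving out E1KO 1 and E1WT 4 that of Urod (0.0651). The causes were not tested.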
